A study of Homo sapiens with 3 samples.

Results

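Protein phosphatase genes were described in HEK293 cells from counts of RNA 5′ ends per gene. The members are the rows of the count table whose symbol begins with PPP1 to PPP6 followed by C or R, or is PPM1 with a letter from A to N. The rule found 78 of 17595 endogenous rows, which were classed as 23 catalytic subunit genes, 53 regulatory subunit genes and 2 pseudogene rows. PPP4R1L, classed as regulatory, is not among the RefSeq protein-coding symbols and had no coding transcript in GENCODE v29, so it may not encode a subunit. HEK293 is an established human cell line derived from embryonic kidney that carries a part of an adenovirus genome. The 3 libraries form 1 group, cells grown in DMEM with glutamine and fetal calf serum with no treatment named. Each started from a lysate of 1000 cells, of which the equivalent of 100 cells was amplified. The libraries are called 20, 21 and 23 after their column headings, which the labels do not match to replicate numbers. With 1 group there is no condition to compare, so genes were set against each other inside each library and the libraries against one another. Separate cultures are not stated in the labels, so p-values over libraries measure a spread that may be technical.

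Protein phosphatases remove phosphate groups from proteins. Most serine and threonine dephosphorylation in animal cells is carried out by the PPP family, whose catalytic subunits are few and closely related and gain their targets by binding many different regulatory subunits. The PPM family is unrelated in sequence, depends on magnesium or manganese, and acts mostly as single proteins.

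Endogenous counts were 1475769, 1330877 and 1545594 in libraries 20, 21 and 23, and 1 count equalled 0.647 to 0.751 counts per 1000000 endogenous counts (CPM). All levels are CPM, and ± is the SD over the 3 libraries unless another n is given. The protein phosphatase rows held 4590, 4190 and 5104 counts, or 0.319% ± 0.010 of endogenous counts. Of the HEK293 markers, VIM had 340 ± 23.4 CPM, CITED1 51.0 ± 5.22 CPM, NEFM 35.6 ± 5.08 CPM and NEFL 33.9 ± 9.07 CPM, while PAX2 had 1 count in all libraries together. The markers of blood (PTPRC, CD3E), liver (ALB), endothelium (CDH5, PECAM1) and cardiac muscle (MYH7) had no row in the table. Tags come from the 5′ end of an RNA whatever its length, so levels were not divided by transcript length. Across 75 members with an annotated coding transcript, Spearman's rho between transcript length and level was -0.12, against -0.17 across 12563 genes. At 10 CPM or more it was -0.23 across 45 members and -0.37 across 7254 genes. All are descriptions across genes of the same libraries.

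The catalytic subunits of PP1 resemble each other so closely that the first question was whether their RNAs can be told apart. The stretches of 60 coding bases below hold the codons of a conserved metal-binding block of the active site, taken from the GENCODE v29 transcripts. For the 3 PP1 genes, on chromosomes 11, 2 and 12, capitals mark the 17 bases that are not the same in all 3. They are shown for the changes within this window, which does not by itself tell whether 5′ tags can be told apart.
PPP1CA: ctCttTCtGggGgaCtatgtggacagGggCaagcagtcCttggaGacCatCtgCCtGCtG
PPP1CB: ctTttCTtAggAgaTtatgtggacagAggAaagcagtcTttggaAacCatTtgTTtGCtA
PPP1CC: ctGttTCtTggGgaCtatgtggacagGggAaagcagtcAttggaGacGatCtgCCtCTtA
For the other catalytic genes, on chromosomes 5, 16, 9 and 4, capitals mark the 21 bases of the block itself, and they show how far the block extends beyond PP1.
PPP2CA: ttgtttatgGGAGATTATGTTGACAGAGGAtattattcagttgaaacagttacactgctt
PPP4C: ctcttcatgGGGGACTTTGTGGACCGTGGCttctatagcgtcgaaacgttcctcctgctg
PPP6C: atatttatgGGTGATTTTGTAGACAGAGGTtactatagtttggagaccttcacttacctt
PPP3CA: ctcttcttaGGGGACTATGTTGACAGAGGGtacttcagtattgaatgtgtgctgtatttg
Over the whole aligned coding sequence PPP1CA and PPP1CC were 75.5% identical, PPP1CA and PPP1CB 73.8%, PPP1CB and PPP1CC 75.6%, and PPP2CA and PPP2CB 83.2%, the highest value of 47 paralog pairs aligned. None of the 47 pairs shared a run of 30 bases within the first 300 bases of any of their annotated transcripts, where tags of a 5′ method lie, and 2 pairs shared one elsewhere (PPP2R5A with PPP2R5E, and PPP1R13B with PPP1R13L). For the catalytic genes and the members averaging at least 10 CPM, the first 300 bases of a single chosen coding transcript were then searched against all GENCODE v29 transcripts. Of these 51 members, 7 shared a run of 30 bases with another gene in that search. Other annotated starts of the 51 were not searched in this way. PPP1R14B shares one with its pseudogene PPP1R14BP3, which is a member with 5 counts. PPM1B, PPP1R8, PPP2CA, PPP2R5C, PPP3CA and PPP4R2 share one with genes whose GENCODE v29 names have no row in the table. The use of strand in counting is not known, and 21 of the 51 overlap an exon of a gene on the opposite strand. PPP2R4 could not be found to overlap on either strand, because exons were sought by symbol and GENCODE v29 names this gene PTPA. In 8 of the 21 an overlapping gene has a row under its GENCODE v29 name, so levels of these members are uncertain. PPP2R5D, with 192 counts in all libraries, overlaps MEA1 with 1085, and PPM1E, with 5, overlaps TRIM37 with 82. The overlapping genes held 195 counts for PPP2R3C (232 counts), 71 for PPP6R2 (102) and 33 for PPM1N (59). They held fewer counts beside those of PPP1CA (77 against 1244), PPP1R7 (43 against 464) and PPP2R1B (37 against 270). On the same strand 8 members overlap another gene, PPP1CB and PPP2CA among them. Only for PPP4R2 (176 counts) does that gene, GXYLT2 with 32 counts, have a row under its GENCODE v29 name. For PPP2CA an overlapping gene, AC104109.3, is also the one that shares a run with it. Rows were sought by name alone, and the count table holds some older symbols. A gene counted here as without a row may thus have one under another name. How tags common to overlapping genes were counted is not known, so the lack of a row does not settle these levels.

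PP1 supplied the most RNA of the catalytic subunits, and its 3 genes were of the same order. PPP1CA, the alpha isoform, had 285, 289 and 284 CPM in libraries 20, 21 and 23. PPP1CC, the gamma isoform, had 217, 250.2 and 236 CPM. PPP1CB, the beta isoform that pairs with the myosin-targeting subunits, had 163, 143 and 182 CPM. The ranges of the 3 genes did not overlap, with PPP1CA highest and PPP1CB lowest in every library. Their counts divided into 41.9% ± 1.30 for PPP1CA, 34.3% ± 2.14 for PPP1CC and 23.8% ± 2.58 for PPP1CB. PPP1CA exceeded PPP1CB by 0.82 ± 0.19 on the log2 scale (limma adjusted p = 2.4e-07, higher in 3 of 3 libraries). PPP1CB lay below PPP1CC by -0.53 ± 0.24 on the log2 scale (limma adjusted p = 0.00062), which did not pass without library 20 (adjusted p = 0.058). PPP1CA over PPP1CC stood at 0.29 ± 0.097 on the log2 scale (limma adjusted p = 0.047), lost without library 20 (adjusted p = 0.48), without library 23 (0.087) and without the variance trend (0.21). PPP1CA was the higher of the pair in 3 of 3 libraries.

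These ratios come from limma's moderated one-sample test on the log2 ratio of the counts of 2 genes within a library, with a pseudocount of 0.5 and Benjamini-Hochberg adjustment over 51 pairs. Of 85 listed pairs, 25 had a gene with no row and 9 had a gene under 10 counts over the 3 libraries, so they were not tested. The ratio differed from 0 in 45 of the 51 pairs, or 88.2%, with the first gene higher in 22 and the second in 23. Pairs of other genes were not tested, so this share has no background and is not a trait of these families. In 44 of the 45 all 3 libraries pointed the same way; the exception was PPP1R3D over PPP1R3E, whose counts were equal in library 23. The fit took its spread from the trend over all pairs alone (its prior degrees of freedom were infinite), which makes the p-values of well counted pairs very small. Without that trend 44 pairs passed, and PPP1CA over PPP1CB had an adjusted p of 0.0049. Library size cancels within a ratio, but differences in capture between RNAs do not.

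**Figure D1:**
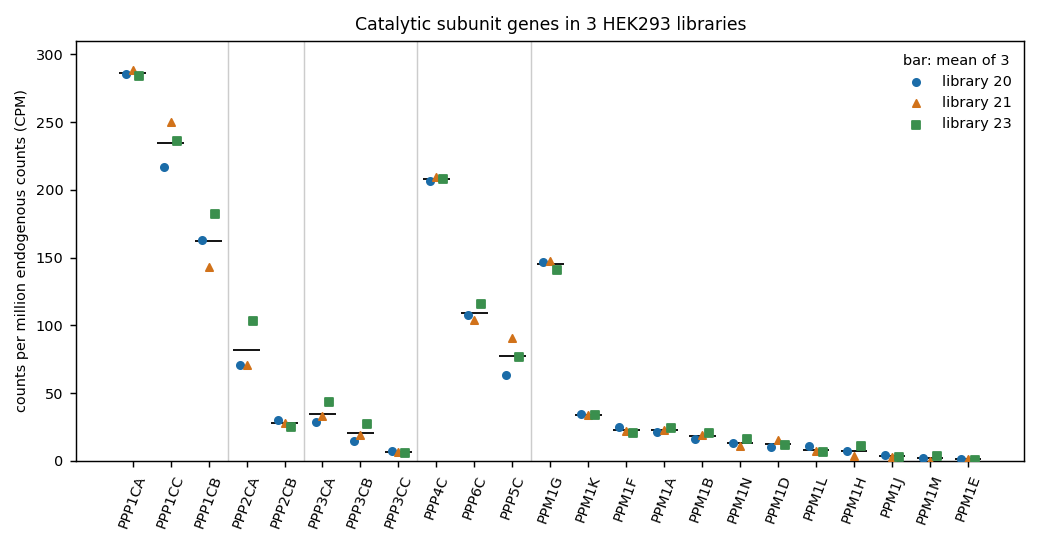
Levels of the 23 catalytic subunit genes, grouped by family along the horizontal axis, in CPM on a linear axis; each symbol is 1 library and each bar the mean of 3. PPP1CA, PPP1CC and PPP4C stand above 200 CPM on average, and PPM1G is the only PPM gene above 100 CPM.

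The catalytic genes of PP2A stood far below those of PP1. PPP2CA, the alpha isoform, had 70.5, 70.6 and 104 CPM, with library 23 apart from the other two. PPP2CB, the beta isoform, had 30.5, 27.8 and 25.2 CPM and did not overlap with PPP2CA. PPP2CA exceeded PPP2CB by 1.52 ± 0.44 on the log2 scale (limma adjusted p = 1.4e-12, higher in 3 of 3 libraries) and held 74.0% ± 5.64 of their counts. PPP1CA exceeded PPP2CA by 1.83 ± 0.33 on the log2 scale, a 3.56-fold excess (limma adjusted p = 5.6e-20). The summed counts of the 3 PP1 genes were 6.58, 6.92 and 5.46 times those of the 2 PP2A genes.

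PP2A works as a trimer of a catalytic subunit, a scaffold and 1 of several B subunits, and here the scaffold genes exceeded the catalytic ones. PPP2R1A, the alpha scaffold, had 248.7, 277 and 262 CPM, second only to PPP1CA among all members. PPP2R1B, the beta scaffold, had 63.0, 56.4 and 66.0 CPM. PPP2R1A exceeded PPP2R1B by 2.08 ± 0.18 on the log2 scale, a 4.24-fold excess (limma adjusted p = 3.2e-22), and held 80.9% ± 1.89 of scaffold counts. Summed scaffold counts were 3.01 ± 0.43 times the summed catalytic counts and 0.932 ± 0.033 times the summed counts of the 11 listed B subunit genes, and the catalytic sum was the lowest of the 3 in every library. With the striatin genes STRN, STRN3 and STRN4, B subunits under other symbols, the ratio of scaffold to B subunits was 0.781 ± 0.047. These are ratios of class sums, given without a test.

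Among B subunits, 1 gene led each family. In the B56 family, PPP2R5C had 124, 122 and 107 CPM and held 57.2% ± 5.55 of the family's counts. PPP2R5D followed at 43.8 ± 8.69 CPM, then PPP2R5E at 25.1 ± 3.83 CPM, PPP2R5A at 16.9 ± 2.76 CPM and PPP2R5B with 11 counts in all. All 10 pairs of the family passed the test, with PPP2R5C over PPP2R5D at 1.44 ± 0.39 (limma adjusted p = 1.2e-12) and PPP2R5A over PPP2R5E at -0.56 ± 0.30 (limma adjusted p = 0.0097). The latter was lost without library 21 (adjusted p = 0.093). In the B55 family, which includes the subunit that opposes mitotic CDK1, PPP2R2A had 53.5, 63.1 and 76.3 CPM. It exceeded PPP2R2D, at 11.4 ± 2.65 CPM, by 2.47 ± 0.25 on the log2 scale (limma adjusted p = 2.9e-20). PPP2R2C had 6 counts, and PPP2R2B, which is known from brain, had no row. Of the B″ genes PPP2R3C had 53.6 ± 6.57 CPM, while PPP2R3A and PPP2R3B had 24 and 27 counts in all and did not pass the threshold as a pair (0.01 ± 1.498 on the log2 scale, limma adjusted p = 0.97). Summed B56 counts were 2.73 ± 0.41 times the B55 counts. PPP2R4, which encodes the activator that loads metal into PP2A, had 42.6 ± 6.42 CPM.

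The counts are per gene and hold no tag positions, so the starts used in these libraries are not known. Promoters of PP1 and PP2A genes are shown as annotated. They are the 150 bases before the most upstream RefSeq start (GRCh38.p14, which is not the build of the files), with capitals for any match on either strand to 5 motifs. The letters searched were GGGCGG for the GC box, TATAAA for the TATA box, CCGGAAG for the ETS core, and CCAAT for the box of that name, and the NRF1 core was searched as well. PPP1CB lies at chr2:28751454-28751603 on the plus strand, PPP1CC at chr12:110742892-110743041 on the minus strand, PPP2CA at chr5:134226074-134226223 on the minus strand and PPP2R1A at chr19:52189902-52190051 on the plus strand.
PPP1CB: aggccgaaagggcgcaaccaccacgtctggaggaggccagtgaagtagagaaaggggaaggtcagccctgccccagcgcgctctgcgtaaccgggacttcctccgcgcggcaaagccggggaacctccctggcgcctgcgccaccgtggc
PPP1CC: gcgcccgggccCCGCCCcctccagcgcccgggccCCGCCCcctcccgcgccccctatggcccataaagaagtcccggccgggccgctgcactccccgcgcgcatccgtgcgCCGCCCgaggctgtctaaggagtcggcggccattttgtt
PPP2CA: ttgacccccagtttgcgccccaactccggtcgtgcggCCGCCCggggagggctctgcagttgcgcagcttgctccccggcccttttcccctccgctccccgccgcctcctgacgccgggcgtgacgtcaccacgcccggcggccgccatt
PPP2R1A: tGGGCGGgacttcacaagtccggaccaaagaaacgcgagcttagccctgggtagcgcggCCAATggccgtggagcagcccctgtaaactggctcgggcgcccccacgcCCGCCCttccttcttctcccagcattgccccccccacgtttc
An entry for PPP1CA was not found in the table. In the 250 bases before the start, a GC box was found in 45 of 57 members with an entry (78.9%), against 42.2% of 27305 RefSeq promoters and 69.8% of 6016 promoters of listed genes averaging at least 10 CPM. A TATA box was found in 2 members (3.51%), against 11.2% and 4.57%. An ETS core was found in 3 members (5.26%), against 8.78% and 19.2%. The NRF1 core was found in 0 members, against 1.13% and 2.49%. A CCAAT box was found in 20 members (35.1%), against 33.0% and 37.0%. The like set for the 6016 promoters is the 37 members at 10 CPM or more. Of these, 45.9% had a CCAAT box, 78.4% a GC box, 2.70% a TATA box, 5.41% an ETS core and 0 the NRF1 core. Of the 20 members under 10 CPM, 3 had a CCAAT box (15%). These differences were not tested. The median GC content was 67.6% in members, 57.6% in all RefSeq promoters and 65.2% in promoters of the listed genes at that level. Matches are descriptions of letters in these windows.

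PP4, PP5 and PP6 are relatives of PP2A, and their catalytic RNAs together exceeded those of PP2A 3.65 ± 0.50-fold. PPP4C had 207, 209.6 and 208 CPM, the closest agreement between libraries of any member at 10 CPM or more. PPP6C had 108, 104 and 116 CPM, and PPP5C, whose protein carries its own regulatory domain, had 63.7, 90.9 and 77.0 CPM. PPP4C exceeded PPP6C by 0.93 ± 0.086 on the log2 scale (limma adjusted p = 4.2e-08) and PPP5C by 1.44 ± 0.25 (limma adjusted p = 3.1e-14). PPP5C lay below PPP6C by -0.51 ± 0.29 (limma adjusted p = 0.0033), which did not pass without library 20 (adjusted p = 0.11). PPP2CA lay below PPP4C by -1.37 ± 0.32 (limma adjusted p = 1.8e-13) and below PPP6C by -0.44 ± 0.24 (limma adjusted p = 0.010). The last call was lost without library 20 (adjusted p = 0.15), without library 21 (0.11) and without the variance trend (0.077).

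The regulatory subunits of PP6 and PP4 were set against their catalytic genes by summed counts. PPP6C counts were 0.920 ± 0.031 times the summed counts of PPP6R1, PPP6R2 and PPP6R3. With the PP6 ankyrin subunit genes ANKRD28, ANKRD44 and ANKRD52, whose symbols do not match the rule, the ratio was 0.706 ± 0.011. PPP6R3 had 77.1 ± 2.95 CPM and exceeded PPP6R1 by 4.15-fold and PPP6R2 by 3.34-fold (limma adjusted p = 8.2e-18 and 1.1e-14). PPP6R1, at 18.5 ± 3.69 CPM, and PPP6R2, at 23.2 ± 4.92 CPM, did not pass the threshold as a pair (-0.32 ± 0.27 on the log2 scale, limma adjusted p = 0.14). PPP4C counts were 3.21 ± 0.36 times the sum of its 4 listed rows classed as regulatory, PPP4R1L with 8 counts among them. PPP4R2 led at 40.3 ± 4.92 CPM, followed by PPP4R1 at 20.8 ± 4.47 CPM. That sum leaves out the further PP4 subunit genes SMEK1 and SMEK2, whose symbols do not match the rule, at 33.9 ± 9.37 and 29.5 ± 1.90 CPM. With them the ratio was 1.63 ± 0.18, so it depends on which subunits are counted.

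Calcineurin, the phosphatase activated by calcium and calmodulin that acts on NFAT factors, had less catalytic RNA than PP1. PPP3CA had 28.5, 33.1 and 43.3 CPM, PPP3CB 14.9, 18.8 and 27.2 CPM, and PPP3CC 7.45, 6.76 and 5.82 CPM. In each library the order was the same, and PPP3CA and PPP3CB were both highest in library 23. PPP3CA exceeded PPP3CB by 0.80 ± 0.13 on the log2 scale and PPP3CC by 2.31 ± 0.48, and PPP3CB exceeded PPP3CC by 1.52 ± 0.60 (limma adjusted p = 0.00015, 6.0e-14 and 6.1e-07). PPP1CA exceeded PPP3CA 8.23-fold (limma adjusted p = 4.0e-31). PPP3R1, the calcium-binding B subunit that calcineurin requires, had 5, 7 and 7 counts, or 4.39 ± 0.94 CPM. Summed catalytic counts were 15.0, 11.1 and 16.9 times the PPP3R1 counts, and PPP3R2, the form known from testis, had no row. PPP3R1 thus had fewer counts than the 3 catalytic genes together in every library. It was not among the members searched for shared runs or overlapping exons, so its level was not checked in that way.

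**Figure D2:**
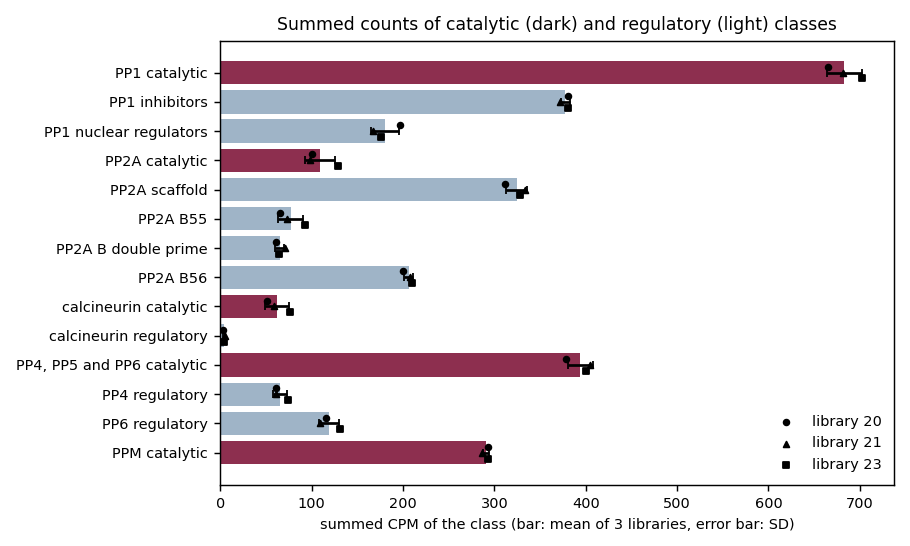
Summed CPM of the catalytic classes (dark) and of selected regulatory classes (light). Bars are means of 3 libraries, error bars SD, and symbols the libraries. PP1 regulatory classes other than inhibitors and nuclear regulators, the PP2A activator and the pseudogene rows are not drawn. The PP1 catalytic sum is 683 ± 19.0 CPM and the PP2A catalytic sum 109 ± 16.8 CPM, below the PP2A scaffold sum of 324 ± 11.4 CPM.

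PP1 has the largest set of regulators. Of its 31 listed regulatory genes 13 averaged at least 10 CPM, close to the 44.6% of all endogenous rows that did. Its inhibitors led. PPP1R14B, which encodes the inhibitor PHI-1, had 127, 139 and 156 CPM. PPP1R2, which encodes inhibitor-2, had 97.4 ± 5.44 CPM, and PPP1R11, which encodes inhibitor-3, had 76.0 ± 5.81 CPM. PPP1R14A, which encodes CPI-17, known from smooth muscle, had 31.7 ± 4.26 CPM, and PPP1R14C had 22.2 ± 3.19 CPM. PPP1R14B exceeded PPP1R14A 4.41-fold and PPP1R14C 6.26-fold (limma adjusted p = 1.6e-20 and 4.4e-25). PPP1R14A over PPP1R14C stood at 0.51 ± 0.067 on the log2 scale (limma adjusted p = 0.014), lost without library 21 (adjusted p = 0.085). PPP1R1A, inhibitor-1, was just under the threshold at 9.61 ± 1.21 CPM. Summed inhibitor counts were 0.553 ± 0.016 times the PP1 catalytic counts.

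Nuclear regulators of PP1 came next. PPP1R7, the SDS22 protein with leucine-rich repeats, had 109, 110.5 and 101 CPM. PPP1R10, or PNUTS, which acts with RNA polymerase II, had 37.7 ± 7.35 CPM, and PPP1R8, or NIPP1, had 35.8 ± 8.22 CPM, both lowest in library 21. Among myosin-targeting subunits, PPP1R12A (MYPT1) had 33.4 ± 4.72 CPM and PPP1R12C 15.7 ± 2.23 CPM, while PPP1R12B had 14 counts in all. PPP1R12A exceeded PPP1R12C by 1.07 ± 0.38 on the log2 scale and PPP1R12B by 3.31 ± 0.62 (limma adjusted p = 1.5e-06 and 7.8e-12). Of the pair that directs PP1 to eIF2 alpha, the constitutive PPP1R15B (CReP) had 21.8 ± 3.47 CPM and the stress-inducible PPP1R15A (GADD34) 7.34 ± 0.71 CPM. PPP1R15A lay below PPP1R15B by -1.52 ± 0.34 on the log2 scale (limma adjusted p = 1.7e-07, lower in 3 of 3 libraries). PPP1R9B, the actin-binding spinophilin, had 24.0 ± 3.26 CPM and exceeded its neuronal relative PPP1R9A, with 16 counts in all, 6.31-fold (limma adjusted p = 1.6e-09). PPP1R35, a centrosomal protein gene, had 23.7 ± 1.74 CPM. PPP1R13B and PPP1R13L, of the p53-binding ASPP family, had 22 and 16 counts and did not pass the threshold as a pair (0.45 ± 0.46 on the log2 scale, limma adjusted p = 0.46).

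None of the 4 listed glycogen-targeting genes averaged 10 CPM, where 44.6% of all endogenous rows did. PPP1R3E was highest at 7.96 ± 2.91 CPM, PPP1R3D and PPP1R3B had 15 and 11 counts in all, and PPP1R3F had 3. PPP1R3E exceeded PPP1R3D and PPP1R3B in the test (limma adjusted p = 0.022 and 0.012), but both calls were lost without library 21 (adjusted p = 0.17 and 0.14) and without library 23 (0.088 and 0.050), and the former also without library 20 (0.10). PPP1R3D over PPP1R3B did not pass the threshold (limma adjusted p = 0.61).

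**Figure D3:**
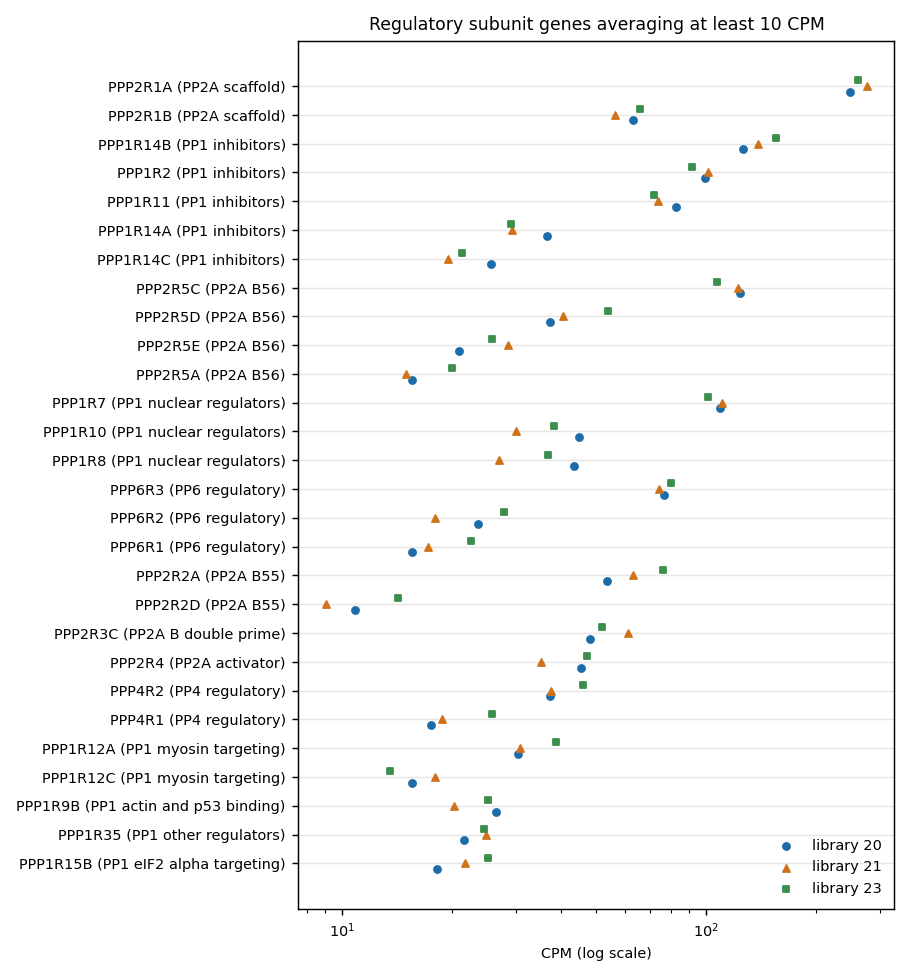
Levels of the 28 regulatory genes averaging at least 10 CPM, by class on the vertical axis and CPM on a log axis, with 1 symbol per library. PPP2R1A stands highest at 263 ± 14.3 CPM, and PPP1R14B, PPP2R5C and PPP1R7 are the others above 100 CPM.

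In the PPM family 1 gene held about as many counts as the others together. PPM1G, a nuclear enzyme linked to splicing factors, had 147, 147 and 141 CPM and 49.9% ± 1.62 of the family's counts. PPM1K, the mitochondrial phosphatase of branched-chain ketoacid dehydrogenase, had 34.0 ± 0.49 CPM. PPM1F had 22.5 ± 2.27 CPM, PPM1A 22.5 ± 1.47 CPM, PPM1B 18.6 ± 2.23 CPM, PPM1N 13.4 ± 2.50 CPM and PPM1D, a p53 target that feeds back on p53, 12.5 ± 2.91 CPM. PPM1G exceeded PPM1A 6.38-fold, PPM1B 7.72-fold and PPM1D 11.5-fold (limma adjusted p = 2.4e-25, 1.9e-27 and 4.0e-31). The close relatives PPM1A and PPM1B did not pass the threshold as a pair (0.28 ± 0.080 on the log2 scale, limma adjusted p = 0.20). PPM1B over PPM1D stood at 0.57 ± 0.29 on the log2 scale (limma adjusted p = 0.016), lost without library 20 (adjusted p = 0.077) and without library 23 (0.28). PPM1L had 8.28 ± 2.28 CPM, PPM1H 7.40 ± 3.62 CPM and PPM1J 15 counts, and PPM1H and PPM1J did not pass the threshold as a pair (0.93 ± 0.70 on the log2 scale, limma adjusted p = 0.091). PPM1M and PPM1E had 9 and 5 counts in all.

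**Figure D4:**
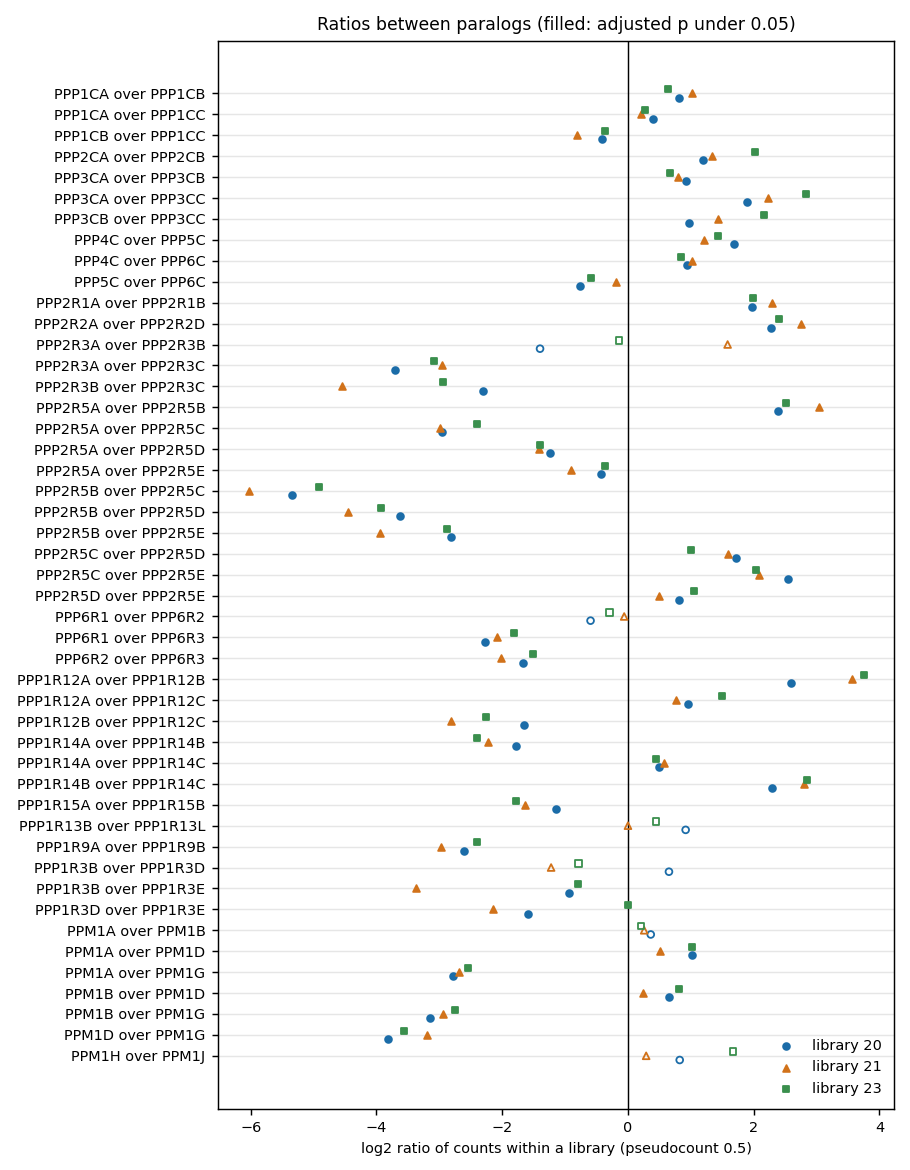
Log2 ratios of counts within each library for the 47 pairs tested inside a family, with filled symbols for pairs with an adjusted p under 0.05 in limma's test and open symbols for the others. Open symbols mark the 6 pairs that did not pass, PPP2R3A with PPP2R3B, PPP6R1 with PPP6R2, PPP1R13B with PPP1R13L, PPP1R3B with PPP1R3D, PPM1A with PPM1B and PPM1H with PPM1J, and PPP2R5B over PPP2R5C lies lowest at a mean of -5.43.

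Over all members, 45 of 78 averaged at least 10 CPM (57.7%), where 44.6% of all endogenous rows did, and 10 of 78 averaged at least 100 CPM (12.8%), against 9.91%. A count in all 3 libraries was found for 75 of 78 members (96.2%), against 72.6%. The median was 22.5 CPM for the 23 catalytic genes, 15.7 CPM for the 53 rows classed as regulatory and 7.16 CPM for all rows. Catalytic genes held 48.3% ± 0.42 of member counts and rows classed as regulatory 51.6% ± 0.42. PPP1CA ranked 587th of the 17595 rows. RefSeq lists 89 protein-coding genes under symbols that match the rule, of which 73 had a row under that symbol, 2 had a row under a synonym and 14 had none. The 14 include the inhibitors PPP1R1B, PPP1R1C and PPP1R14D and the glycogen-targeting PPP1R3A, PPP1R3C and PPP1R3G. The table holds only rows with a count, and a gene without a row is given no upper limit. The 11 members under 10 counts in all were PPP1R37, PPM1M, PPP4R1L, PPP1R16B, PPP1R42, PPP2R2C, PPM1E, PPP1R32, PPP1R3F and the pseudogene rows PPP1R14BP2 and PPP1R14BP3, and at that depth no order among them can be read. PPP1R16A, PPP1R18, PPP1R21, PPP1R26 and PPP4R4 had 11 to 27 counts each. On the scale of the spiked RNAs, with 20000 molecules added per cell, PPP1CA had 150 ± 6.56, PPP2CA 43.0 ± 12.3 and PPP3R1 2.30 ± 0.47 molecules per cell, which assumes that spikes and cellular RNAs were captured alike.

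The libraries were then compared with each other. Of 67 members with at least 10 counts, 0 passed the exact binomial test between pairs of libraries after Benjamini-Hochberg adjustment over all 11424 genes and 3 pairs, where 0.56% of all genes passed. At that share less than 1 call is to be found among 67 genes, so the count says nothing particular about the members. An unadjusted p under 0.05 in at least 1 pair was found for 12 of the 67 (17.9%), against 15.9% of all genes tested. A chi-square test over the 3 libraries also called 0, with 4 members at an unadjusted p under 0.05. PPP2CA came nearest, in library 23 against 20 (exact binomial test, adjusted p = 0.27). With the spike totals as library sizes 2 members passed, PPP2CA and PPP1CB (lowest adjusted p = 0.028), and 250 genes of the whole table did. Among the 45 members at 10 CPM or more the coefficient of variation over libraries ran from 0.724% for PPP4C to 30.9% for PPP3CB, with a median of 13.5% against 11.7% for all genes at that level.

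Partners of these phosphatases whose symbols fall outside the rule were present as well. Of 50 such symbols, a current and an older symbol of the same gene among them, 45 had a row. Of these 45, 35 averaged at least 10 CPM, where 44.6% of all endogenous rows did. Of the 43 with at least 10 counts 0 passed the exact binomial test between libraries, where 0.56% of all genes did. All 7 genes of the PP2A inhibitor and mitotic switch list averaged at least 10 CPM, led by SET at 532 ± 37.5 CPM, which is above every member, and ANP32A at 164 ± 19.5 CPM. All 4 genes for PP2A assembly and methylation did too, with TIPRL at 83.2 ± 11.6 CPM and the methyltransferase gene LCMT1 at 75.1 ± 5.10 CPM. Of 8 calcineurin regulators and NFAT genes 4 did, led by NFATC3 at 28.5 ± 1.18 CPM and CABIN1 at 16.98 ± 1.94 CPM. Of the striatin complex genes MOB4 had 135 ± 19.2 CPM and STRN4 40.4 ± 9.27 CPM. RRP1B and WBP11, which bind PP1, had 95.2 ± 6.74 and 94.4 ± 10.1 CPM. Among other genes of the PPP and PPM families ILKAP led at 58.4 ± 7.20 CPM, followed by TAB1 at 22.8 ± 5.97 CPM.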

How the data were processed

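The deposited values of the 3 HEK293 libraries are raw counts by gene. The submitters' processing notes name STAR 2.4.0a, cutadapt 1.2.1 and the genome build hg19 (GRCh37). How tags were counted, by which annotation, with or without strand and with or without collapsing of molecular identifiers, is not given in the sources used here. A count can thus stand for a read or a molecule. The 80 spike rows of 17675 were left out of library sizes. Intervals and p-values of the exact tests cover counting error only.

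Paralog ratios were tested with limma 3.58.1, and the libraries with an exact binomial test (scipy 1.17.1) over all genes with at least 10 pooled counts, both at an adjusted p of 0.05. Class sums were given without a test. Size factors came from edgeR 4.0.16 (TMM) and DESeq2 1.42.0. The scripts were tested on simulated data. Named are all listed catalytic members, regulatory members averaging at least 10 CPM, members in any of the 85 pairs and up to 2 partners per list; PPP1R18, PPP1R21, PPP1R26, PPP4R4, members under 10 counts in no pair, overlapping genes, and the ANKRD and striatin genes other than STRN4 were added after values were seen. Members and lists were chosen with earlier results of these data known. Sequences came from RefSeq (GRCh38.p14) and GENCODE v29. Protein sequences were not used here. Alternatives covered pseudocounts, count minimums, the variance trend, library sizes, other tests and leaving out each library; ratios with subunits under other symbols were added after seeing the data.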

Additional observations from a re-analysis of the deposited data

How the results depend on the processing

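The number of paralog pairs past the threshold, 45 of 51, was 45 with a pseudocount of 1, 44 without the variance trend, 30 of 33 with a minimum of 50 counts, 53 of 60 with no minimum and 46 by an exact binomial test on pooled counts, and 39 to 41 when 1 library was left out. Of the 45 pairs, 36 passed in every one of these settings that tested them. The other 9 are given with their values in the text. PPM1H over PPM1J passed without the trend, by the exact test and without library 21. PPP2R3A over PPP2R3B, which did not pass, ranged from -0.77 without library 21, a reversed direction, to 0.72 without library 20. PPP2CA over PPP6C was also lost with a minimum of 50 counts (adjusted p = 0.060), and PPP1CA over PPP1CC with no minimum (0.089); the cause was not tested. With 2 libraries left, the spread rests on the other pairs. The number of members that differ between libraries was 0 in each setting but spike totals, where it was 2; the cause was not tested. The number of members averaging at least 10 CPM stayed between 44 and 46 under other scalings, with 1 library left out and when each library had to reach the level, and was 38 at 20 CPM. Members under 10 counts are limited by depth.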
